A study of Mus musculus with 2 samples.

Results

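The collagen gene family was described in liver RNA of mice with diet-induced fatty liver. Members were all genes of the deposited table whose symbol consists of Col, a type number, the letter a and a chain number. This rule took 44 of the 45777 genes in the table, with 222 transcripts, and used no measured value. The members were divided into 11 fibrillar collagens, 8 basement membrane collagens and 25 other collagens.

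Collagens are extracellular matrix proteins of 3 chains that wind into a triple helix, which requires a glycine at the first position of each Gly-X-Y triplet. Fibrillar collagens assemble into the banded fibers that accumulate in a scarring liver, where activated hepatic stellate cells and portal fibroblasts are their main known sources. Type IV collagens form the sheets of basement membranes, and types XV and XVIII are proteoglycans anchored in or beside these sheets. The remaining types decorate fibrils, form beaded filaments or short-chain networks, or span the cell membrane.

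All mice were C57BL/6 N, were placed on a high-fat diet (HFD) at 7 weeks of age, and stayed on it for 18 weeks. At week 13 of the diet, with 5 weeks to go, they received either AAV-GFP, the control vector with green fluorescent protein, or AAV-*Wee1-AS*, a vector for the long noncoding RNA antisense to *Wee1*. The vector was AAV9 with the CMV promoter given into the retro-orbital vein, so expression was not restricted to hepatocytes. Poly-A RNA of the liver was sequenced, and 1 library per group was analyzed here. The series' own description of the design counts 4 livers. Nothing in the labels says whether a library holds RNA of 1 mouse or of several. *Wee1-AS* itself was not analyzed here.

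Estimated read counts totaled 55466182 with AAV-GFP and 48079335 with AAV-*Wee1-AS*. Levels of different genes are compared in TPM, a unit scaled by transcript length that sums to the same value in both libraries. The difference between the libraries is given as a log2 ratio, AAV-*Wee1-AS* over AAV-GFP, computed from counts scaled by the TMM method of edgeR, so negative values mean a lower level with AAV-*Wee1-AS*. An exact 95% interval by the Clopper-Pearson method was computed from the counts behind each ratio. With 1 library per group there is no spread between mice, so no test was run and no p-value is given. The intervals cover counting error only and set one library against the other, not the treatments, and PCR copies of a read do not stand for separate molecules. The liver label was checked on 6 hepatocyte genes, albumin (*Alb*) among them, whose summed level was 82330 TPM with AAV-GFP and 91820 TPM with AAV-*Wee1-AS*.

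The repeat that defines the family can be read in exons of 54 bases that hold 6 whole Gly-X-Y triplets, which some but not all exons of this length do. An exon of this kind is given for type I and type III chains, for a basement membrane chain, for a beaded filament chain and for a fibril-associated collagen, to show what members with different ratios have in common (GENCODE annotation of GRCm38). Capitals mark the GG that begins each glycine codon.
*Col1a1*, exon 8, chr11:94939904-94939957, plus strand: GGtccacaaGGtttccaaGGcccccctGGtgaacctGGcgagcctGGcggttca
*Col1a2*, exon 8, chr6:4515481-4515534, plus strand: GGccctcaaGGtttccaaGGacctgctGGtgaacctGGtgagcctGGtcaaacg
*Col3a1*, exon 6, chr1:45325360-45325413, plus strand: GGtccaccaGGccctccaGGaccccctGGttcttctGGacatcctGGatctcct
*Col4a1*, exon 7, chr8:11245211-11245264, minus strand: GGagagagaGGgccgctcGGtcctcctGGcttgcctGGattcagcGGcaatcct
*Col6a1*, exon 9, chr10:76719623-76719676, minus strand: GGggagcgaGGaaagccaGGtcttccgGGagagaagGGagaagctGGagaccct
*Col14a1*, exon 39, chr15:55472927-55472980, plus strand: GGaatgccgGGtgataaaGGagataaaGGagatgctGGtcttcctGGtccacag

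In the longest coding transcripts of the annotation, the uninterrupted run of Gly-X-Y triplets was 338 long in *Col1a1*, 339 in *Col1a2*, 344 in *Col3a1*, 338 in *Col5a1*, 339 in *Col5a2* and 337 in *Col5a3*. These fibrillar chains thus share a single long helix. Exons of 54 bases numbered from 21 in *Col1a1* to 33 in *Col24a1* and *Col27a1* in the fibrillar class, and at most 28 (*Col22a1*) outside it. The longest run was 40 triplets in *Col4a1*, 66 in *Col4a2*, 30 in *Col15a1* and 30 in *Col18a1*, which are broken by many interruptions. It was 87 triplets in both *Col6a1* and *Col6a2*, 32 in *Col14a1* and 217 in *Col27a1*, a fibrillar type with a shorter helix. Glycine made up 26.8% of the residues encoded by *Col1a1* and 16% of those encoded by *Col18a1*.

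Of the 44 members, 28 had at least 10 counts in at least 1 library and entered the ratios. Another 7 had some counts but fewer than that in both libraries, and 9 were listed at 0 in both libraries. The 9 members at 0 were *Col2a1*, *Col9a1*, *Col9a2*, *Col9a3*, *Col10a1* and *Col11a1*, which are collagens of cartilage, and *Col19a1*, *Col22a1* and *Col26a1*. A count of 0 allows up to 3 counts, which is 0.0541 CPM with AAV-GFP and 0.0624 CPM with AAV-*Wee1-AS*. Because a member low in one library could pass through the other, 4 members passed with AAV-GFP alone, namely *Col4a6*, *Col6a5*, *Col8a1* and *Col11a2*. These 4 therefore had to have lower counts with AAV-*Wee1-AS*, and counts over the 28 are given as a description.

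The collagens were lower as a family in the AAV-*Wee1-AS* library. Their summed level was 688.7 TPM with AAV-GFP and 403.9 TPM with AAV-*Wee1-AS*. Of the 28 members, 27 had a log2 ratio below 0, against 8010 of the 15857 genes that passed the same filter. *Col23a1* was the exception, which turned below 0 when the libraries were scaled by their upper quartile. The ratio was below 0.5 for 15 members, against 8.71% of all 15857 genes past the same filter. No member had a ratio above 2, against 22.2% of all genes. Once trends of the ratio with GC content and transcript length across all genes were removed, it was again none, against 7.51%. The counting interval lay wholly below no difference for 20 members, against 38.0% of all genes, and wholly below 0.5 for 10 members, against 3.72%. The median log2 ratio was -1.13 over the 28 members and -0.02 over all genes. In liver tissue, fewer cells of a collagen-producing type and less collagen RNA per cell cannot be told apart. The study's text reports, from its own RNA sequencing of HFD-fed mice, that genes of collagen fibril organization were altered, without giving a direction. That report may rest on these same libraries and is not counted as independent evidence. In other mice, on a choline-deficient high-fat diet, the study reports reduced collagen deposition and α-SMA protein with a hepatocyte-specific *Wee1-AS* vector. Those are measures of stained tissue and protein, not of collagen RNA.

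**Figure D1:**
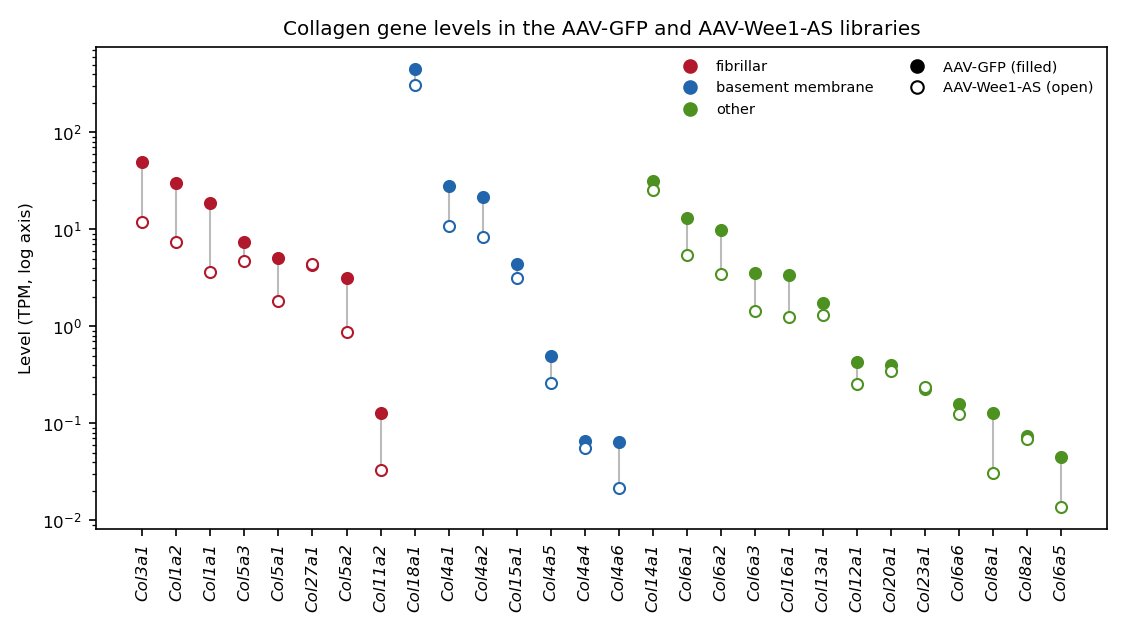
Level in TPM (log axis) of the 28 collagen genes past the filter of 10 counts, by class and in order of their AAV-GFP level, with filled points for AAV-GFP and open points for AAV-*Wee1-AS* (1 library each). *Col18a1* is at 450.8 and 307.2 TPM, far above every other member, and the widest gaps among abundant members are those of *Col1a1*, *Col1a2* and *Col3a1*.

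Type I and type III collagens, which make up the bulk of the fibers of a scar, showed the lowest ratios of all members with at least 100 counts, although *Col5a2* was lowest, at -2.28, once the trends that ratios show across all genes with transcript length and GC content were removed. *Col1a1*, the α1 chain of type I collagen (NCBI gene 12842, chromosome 11, 94936224 to 94953042 of mm10), had 3620 counts with AAV-GFP and 603 with AAV-*Wee1-AS*. Its log2 ratio was -2.32 (95% counting interval -2.45 to -2.20), a level 4.99-fold lower. No other member past the filter had a lower ratio.

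*Col1a2*, the α2 chain that joins pairs of α1 chains in the type I molecule (NCBI gene 12843, chromosome 6, 4505618 to 4541543), had 5219 counts with AAV-GFP and 1070 with AAV-*Wee1-AS*. Its level was 4.06-fold lower, a log2 ratio of -2.02 (-2.12 to -1.93). *Col3a1*, whose chains form type III collagen and copolymerize with type I (NCBI gene 12825, chromosome 1, 45311538 to 45349706), had 9104 and 1858 counts, and its log2 ratio was -2.03 (-2.10 to -1.96). The intervals of *Col1a2* and *Col3a1* overlapped, while that of *Col1a1* lay below both. This order rests on leaving the trends in place, since with them removed *Col1a1* was at -2.01, *Col3a1* at nearly the same value and *Col1a2* at -1.76. The TPM of *Col1a1* relative to *Col1a2* was 0.611 with AAV-GFP and 0.496 with AAV-*Wee1-AS*. *Col3a1* stood at 2.68 times the TPM of *Col1a1* with AAV-GFP and at 3.28 times with AAV-*Wee1-AS*. In both libraries *Col3a1* had the highest level of the fibrillar class, followed by *Col1a2*.

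Type V collagen is a minor fibrillar type that nucleates fibrils and limits their width, and its 3 chains did not share one ratio. *Col5a2* had 683 counts with AAV-GFP and 161 with AAV-*Wee1-AS*, a log2 ratio of -1.81 (-2.08 to -1.57). *Col5a1* had 1360 and 419 counts and a log2 ratio of -1.43 (-1.60 to -1.28). *Col5a3* had 1562 and 819 counts and a log2 ratio of -0.67 (-0.79 to -0.54). The interval of *Col5a3* lay apart from those of *Col5a1* and *Col5a2*, which met only at their ends. As a result, the TPM of *Col5a3* relative to *Col5a1* was 1.48 with AAV-GFP and 2.57 with AAV-*Wee1-AS*.

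*Col27a1*, a fibrillar collagen known from cartilage, was the member of this class without a lower level. It had 1018 counts with AAV-GFP and 838 with AAV-*Wee1-AS*, a log2 ratio of -0.02 (-0.15 to 0.12), and its level was 4.26 and 4.35 TPM. The sign of this ratio turned with the unit and when both trends, those of transcript length and of GC content, were removed together. With the most abundant transcript only, the ratio of *Col27a1* was lower, at -1.26. At low counts, *Col11a2* had 30 and 7 counts and a log2 ratio of -1.60 (-3.27 to -0.62). Its wide interval shows how little 7 counts can resolve. *Col24a1* remained under the filter with 5 and 8 counts.

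Of the 11 fibrillar members, 8 passed the filter and 6 of these had a ratio below 0.5, against 8.71% of all genes. *Col11a2*, among the 6, passed with AAV-GFP alone. The median log2 ratio of the 8 was -1.71. Summed over the class, counts were 22601 with AAV-GFP and 5783 with AAV-*Wee1-AS*, a pooled log2 ratio of -1.70 (-1.75 to -1.66). The pooled value rests mainly on *Col1a1*, *Col1a2* and *Col3a1*.

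**Figure D2:**
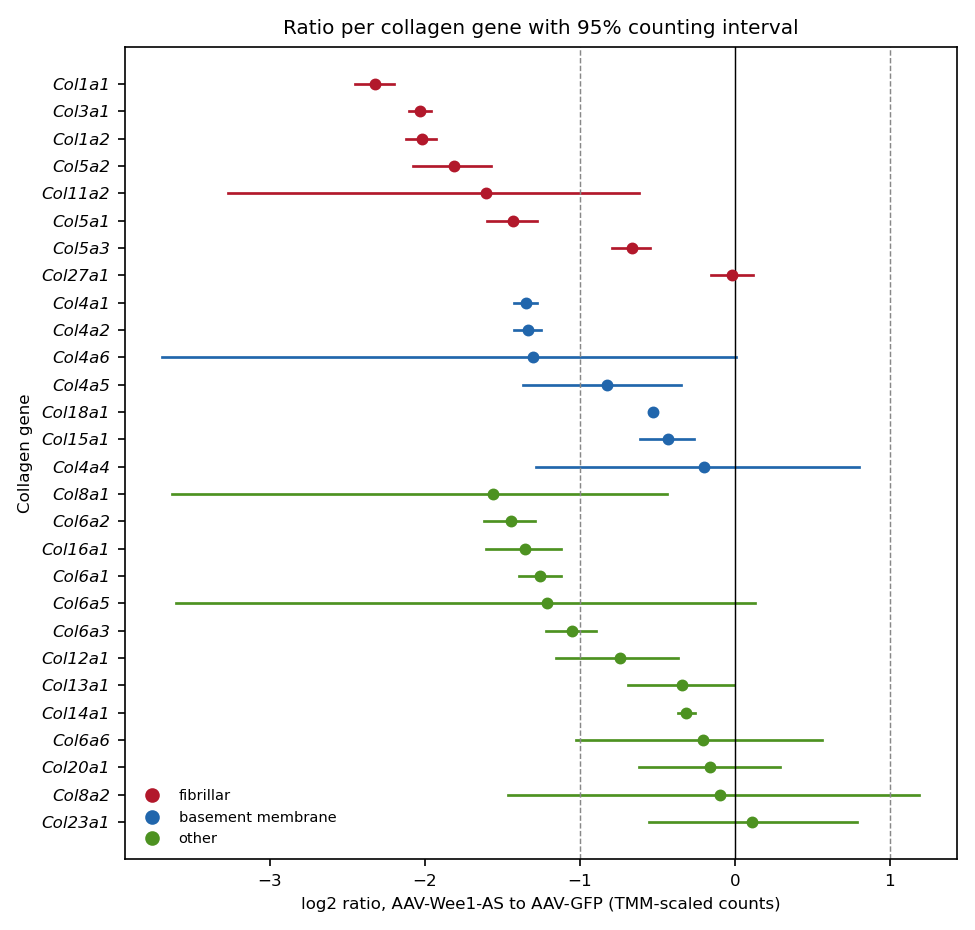
The log2 ratio, AAV-*Wee1-AS* over AAV-GFP (x axis, TMM-scaled counts), for each of the 28 collagen genes, with its 95% counting interval as a bar, a solid line at no difference and dashed lines at 2-fold. The fibrillar genes reach from -2.32 to -0.02, and wide bars belong to members with few counts.

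The basement membrane class held both the most abundant collagen of these livers and the paired chains of the main type IV molecule. The type IV pair is shown here with its promoters because *Col4a1* and *Col4a2* are transcribed away from each other from adjoining starts on chromosome 8. The RefSeq starts lie 21 bases apart, and their promoter windows (250 bases before to 50 after the start, GRCm38.p6) share 78 bases. The promoters of *Col1a2* and *Col3a1* are shown for comparison, as members with similar ratios. Capitals mark, on either strand, the CCAAT box (the letters CCAAT), the GC box (the letters GGGCGG) and the TATA box (the letters TATAAA).
*Col4a1*, chr8:11312777-11313076, minus strand: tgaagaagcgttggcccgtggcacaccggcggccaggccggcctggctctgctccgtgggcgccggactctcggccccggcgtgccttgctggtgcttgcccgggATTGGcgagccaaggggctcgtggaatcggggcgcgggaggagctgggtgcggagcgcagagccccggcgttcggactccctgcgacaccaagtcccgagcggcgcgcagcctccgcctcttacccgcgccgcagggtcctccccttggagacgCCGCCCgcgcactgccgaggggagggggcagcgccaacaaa
*Col4a2*, chr8:11312555-11312854, plus strand: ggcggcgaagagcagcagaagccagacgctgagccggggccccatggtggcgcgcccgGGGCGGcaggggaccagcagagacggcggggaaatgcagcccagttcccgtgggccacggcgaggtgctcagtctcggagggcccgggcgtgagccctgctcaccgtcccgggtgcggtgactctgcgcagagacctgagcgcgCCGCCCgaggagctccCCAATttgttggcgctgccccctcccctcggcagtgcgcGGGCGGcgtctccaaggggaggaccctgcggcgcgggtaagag
*Col1a2*, chr6:4505368-4505667, plus strand: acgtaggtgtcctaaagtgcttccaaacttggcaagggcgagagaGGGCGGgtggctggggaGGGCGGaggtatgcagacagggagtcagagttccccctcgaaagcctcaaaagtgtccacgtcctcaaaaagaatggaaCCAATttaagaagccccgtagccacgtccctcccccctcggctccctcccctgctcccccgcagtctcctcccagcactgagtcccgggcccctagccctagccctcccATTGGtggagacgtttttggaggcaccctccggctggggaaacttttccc
*Col3a1*, chr1:45311288-45311587, plus strand: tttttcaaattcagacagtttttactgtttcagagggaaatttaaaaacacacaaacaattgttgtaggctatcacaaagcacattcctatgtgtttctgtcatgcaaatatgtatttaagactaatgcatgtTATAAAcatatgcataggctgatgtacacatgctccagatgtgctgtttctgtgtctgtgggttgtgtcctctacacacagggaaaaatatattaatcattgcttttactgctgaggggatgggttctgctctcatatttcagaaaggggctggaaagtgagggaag

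The CCAAT and GGGCGG letters occurred in the windows of *Col4a1*, *Col4a2* and *Col1a2*, and TATAAA occurred in that of *Col3a1*, upstream of its start. *Col1a2* and *Col3a1*, whose ratios were similar, thus did not share these letters. Of the 44 members, 35 had a promoter in the table, in 38 windows. GGGCGG on either strand was found in 60.5% of the members' windows and in 35.7% of all 32851 windows of the same length. CCAAT was found in 34.2% of the members' windows and 37.4% of all windows, and TATAAA in 13.2% and 13.6%. No motif contains another. These matches describe the sequence and do not show binding.

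*Col4a1* (NCBI gene 12826, chromosome 8, 11198423 to 11312889) had 6080 counts with AAV-GFP and 1986 with AAV-*Wee1-AS*. Its log2 ratio was -1.35 (-1.42 to -1.28). *Col4a2* (NCBI gene 12827, chromosome 8, 11312805 to 11449287), the second chain of the same molecule, had 4543 and 1498 counts and a log2 ratio of -1.34 (-1.42 to -1.25). The intervals of the paired chains nearly coincided, and the TPM of *Col4a1* relative to *Col4a2* was 1.31 with AAV-GFP and 1.29 with AAV-*Wee1-AS*. The genes share 85 bases in the table, where reads of one cannot be told from the other if strand was not used in counting, which is not stated.

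The other type IV chains, known mainly from other organs such as the kidney, were scarce. *Col4a5* had 106 counts with AAV-GFP and 49 with AAV-*Wee1-AS*, a log2 ratio of -0.83 (-1.37 to -0.35). Its sign turned with the most abundant transcript only (0.43). *Col4a6* had 15 and 4 counts and *Col4a4* had 21 and 15, and the intervals of both included no difference. *Col4a3*, with 4 and 7 counts, stayed under the filter. Summed over the 6 type IV genes, the pooled log2 ratio was -1.33 (-1.39 to -1.28), which rests on *Col4a1* and *Col4a2*.

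*Col18a1* encodes type XVIII collagen, the source of endostatin, and hepatocytes are known to be its main producers in the liver. The gene (NCBI gene 12822, chromosome 10, 77052178 to 77166530) had 84731 counts with AAV-GFP and 48976 with AAV-*Wee1-AS*. It held 65.5% of the family's summed TPM with AAV-GFP and 76.1% with AAV-*Wee1-AS*. Despite its abundance, its ratio was closer to no difference than those of the type IV pair, with a log2 ratio of -0.53 (-0.54 to -0.51). *Col15a1*, its closest relative in the family, had 703 and 433 counts and a log2 ratio of -0.43 (-0.61 to -0.26). The TPM of *Col18a1* was 104 times that of *Col15a1* with AAV-GFP and 97.4 times with AAV-*Wee1-AS*. Type XV and type XVIII genes therefore kept nearly the same proportion.

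*Col18a1* is transcribed from separate upstream and inner promoters, of which the inner one is known for its use in hepatocytes. Both windows are given because the estimated counts of their transcripts differed. Capitals mark the same motifs as above.
*Col18a1*, upstream start, chr10:77166481-77166780, minus strand: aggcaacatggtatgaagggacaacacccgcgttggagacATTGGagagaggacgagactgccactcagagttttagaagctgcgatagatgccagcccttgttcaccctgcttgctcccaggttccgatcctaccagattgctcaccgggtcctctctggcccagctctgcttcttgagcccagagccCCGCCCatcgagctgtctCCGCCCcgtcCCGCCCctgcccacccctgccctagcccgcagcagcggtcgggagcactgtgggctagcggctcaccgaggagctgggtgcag
*Col18a1*, inner start, chr10:77113656-77113955, minus strand: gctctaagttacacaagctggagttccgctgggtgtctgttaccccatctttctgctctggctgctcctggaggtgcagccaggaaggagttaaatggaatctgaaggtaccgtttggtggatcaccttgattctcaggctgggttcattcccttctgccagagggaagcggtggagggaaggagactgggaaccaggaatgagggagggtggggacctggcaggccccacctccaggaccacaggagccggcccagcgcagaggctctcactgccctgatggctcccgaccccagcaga

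The 5 transcripts grouped under the inner start held 84128 counts with AAV-GFP and 48964 with AAV-*Wee1-AS*. Of these, transcript variant 1, whose window is printed, held 50583 and 32219, and the others begin upstream of that window. The transcript from the upstream start was assigned 603 counts (0.712% of the gene) with AAV-GFP and 12 (0.0245%) with AAV-*Wee1-AS*. Its log2 ratio was -5.19 (-6.35 to -4.57), against -0.52 (-0.53 to -0.50) for the 5 inner transcripts together. The upstream window holds 3 GGGCGG and 1 CCAAT match on the reverse strand. The printed inner window, that of transcript variant 1 only, holds none of the motifs searched. Counts of single transcripts are shares that the quantification assigned among overlapping models, and this was the least certain kind of value here.

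Of the 8 basement membrane members, 7 passed the filter and 3 had a ratio below 0.5, against 8.71% of all genes. These were *Col4a1*, *Col4a2* and *Col4a6*, the last of which passed with AAV-GFP alone. With the trends removed, 4 were below 0.5-fold, against 8.44% of all genes. The median log2 ratio was -0.83. Pooled over the class it was -0.60 (-0.61 to -0.58), and without *Col18a1* it was -1.26 (-1.31 to -1.21). *Col18a1* thus decides the pooled value of this class.

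Type VI collagen, the beaded filament that surrounds cells and binds basement membranes, was the main part of the other collagens to show ratios below 0.5. *Col6a1* had 1721 counts with AAV-GFP and 600 with AAV-*Wee1-AS*, a log2 ratio of -1.25 (-1.39 to -1.12). *Col6a2*, its neighbor on chromosome 10, had 1290 and 393 counts and a log2 ratio of -1.45 (-1.62 to -1.29). *Col6a3*, the large α3 chain on chromosome 1, had 1092 and 438 counts and a log2 ratio of -1.05 (-1.22 to -0.89). The 3 chains assemble in equal numbers, and the intervals of *Col6a2* and *Col6a3* did not overlap. With the trends removed, however, *Col6a2* was at -1.17 and *Col6a3* at -1.25, in the other order. *Col6a1* (-0.76) was then no longer below 0.5-fold. *Col6a3* was at 2.53 with the most abundant transcript only. The TPM of *Col6a1* relative to *Col6a3* was 3.69 with AAV-GFP and 3.74 with AAV-*Wee1-AS*, and relative to *Col6a2* it was 1.35 and 1.55. The TPM of *Col6a2* relative to *Col6a3* was 2.74 and 2.41. The alternative α chains were scarce, with 14 and 4 counts for *Col6a5*, 35 and 25 for *Col6a6* and 6 and 0 for *Col6a4*.

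Fibril-associated collagens, which sit on the surface of fibrils, ranged from no clear difference to a low ratio. *Col14a1*, the most abundant of them, had 6726 counts with AAV-GFP and 4512 with AAV-*Wee1-AS*, a log2 ratio of -0.31 (-0.37 to -0.26). Its level was 31.8 TPM with AAV-GFP, between those of *Col3a1* and *Col1a2*, and 25.3 TPM with AAV-*Wee1-AS*, above every fibrillar gene. *Col16a1* had 583 and 189 counts and a log2 ratio of -1.35 (-1.61 to -1.12). *Col12a1*, which like *Col14a1* carries long noncollagenous arms, had 168 and 83 counts and a log2 ratio of -0.74 (-1.15 to -0.37). *Col20a1*, with 98 and 73 counts, had an interval that included no difference. Within this group *Col16a1* alone had a ratio below 0.5, but with the trends removed *Col16a1* was at -0.93 and *Col12a1* at -1.70.

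The remaining types gave few counts. *Col13a1*, a transmembrane collagen of cell adhesion sites, had 183 counts with AAV-GFP and 120 with AAV-*Wee1-AS*, a log2 ratio of -0.34 (-0.69 to -0.01). Its sign turned with the trends removed (0.36). *Col23a1*, another transmembrane type, had 42 and 38 counts and a log2 ratio of 0.11 (-0.55 to 0.79). *Col8a1*, a short-chain collagen of vessel walls, had 22 and 5 counts and a log2 ratio of -1.56 (-3.63 to -0.44). *Col8a2*, its partner chain, had 13 and 10 counts and an interval that included no difference. Under the filter were *Col7a1* of anchoring fibrils with 0 and 2 counts, *Col17a1* of hemidesmosomes with 6 and 0, *Col25a1* with 0 and 4 and *Col28a1* with 9 and 8. At these counts no difference could be detected.

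Of the 25 other collagens, 13 passed the filter and 6 had a ratio below 0.5, against 8.71% of all genes. Of the 6, *Col6a5* and *Col8a1* passed with AAV-GFP alone. With the trends removed, 5 were below 0.5-fold, against 8.44% of all genes. The median log2 ratio of those that passed was -0.74 and the pooled one of the class was -0.62 (-0.66 to -0.58). In each class, then, the members that passed ranged from a ratio below 0.5 to one near no difference. The fibrillar median was the lowest. The order of the other two depended on the setting, with medians of -0.83 (basement membrane) and -1.05 (other) among genes that reached 100 counts in a library and -0.43 and -0.61 with the most abundant transcript only, while the median of the other collagens was -0.34 when each library had to reach 10 counts. The pooled ratio of type IV genes alone stood nearer to the fibrillar genes than to *Col18a1*.

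The classes made up different shares of the family's summed TPM in the libraries. Fibrillar collagens held 17.2% with AAV-GFP and 8.61% with AAV-*Wee1-AS*. The basement membrane class held 73.3% and 81.7%, and the other collagens held 9.43% and 9.73%. As shares of counts, which are not scaled by length, the fibrillar class held 17.3% (exact 95% interval 17.1% to 17.5%) and 8.86% (8.64% to 9.08%). These shares depend on which members enter. Without *Col18a1*, the fibrillar share was 49.9% with AAV-GFP and 36.0% with AAV-*Wee1-AS*, the basement membrane share was 22.8% and 23.4%, and the share of the other collagens was 27.3% and 40.7%. The fibrillar share was smaller with AAV-*Wee1-AS* in both settings. It was nearly level, at 3.40% and 3.11%, without *Col1a1*, *Col1a2* and *Col3a1*, and the share of the other collagens was then 11.01% and 10.32%. With the basement membrane class held to type IV chains, its share was 7.25% and 4.81%, so the direction for these classes turned with the choice.

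**Figure D3:**
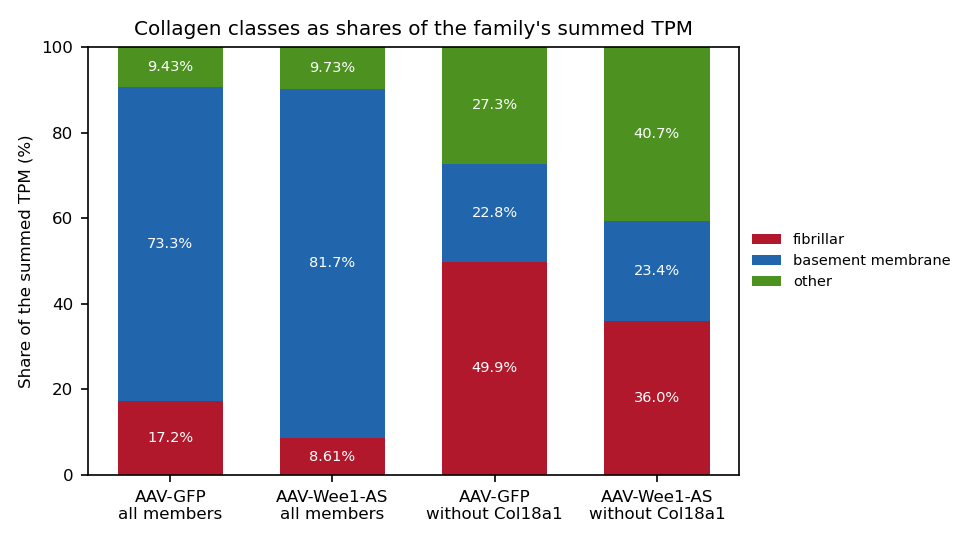
Share of the family's summed TPM (y axis, %) held by each collagen class in the AAV-GFP and AAV-*Wee1-AS* libraries, for all 44 members (left bars) and without *Col18a1* (right bars). The fibrillar share is 17.2% and 8.61% with all members and 49.9% and 36.0% without *Col18a1*.

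Across all genes, the log2 ratio decreased with the GC content of the transcript (Spearman coefficient -0.67 over 14995 genes of the same pair of libraries), and collagen genes are rich in GC. Of the 28 members, 11 lay in the tenth of genes with the highest GC content (57.7% to 72.8%), where all genes together had a median log2 ratio of -0.69 and 20.6% had a ratio below 0.5. The median of the 11 members there was -1.34. Among the 28 members the coefficient was 0.02, over genes that are not independent. Once lowess fits had removed the trends with GC content and with transcript length, 15 members had a value below 0.5-fold, against 8.44% of all genes, and the median was -1.06. Of these, 13 were also below 0.5 before the removal, *Col4a5* (-1.06) and *Col12a1* (-1.70) were added, and *Col6a1* (-0.76) and *Col16a1* (-0.93) were no longer among them. *Col1a1* was then at -2.01, *Col4a1* at -1.17 and *Col18a1* at -0.14. *Col8a2*, *Col13a1*, *Col20a1* and *Col27a1* were above 0 after the removal, as was *Col23a1* (0.31), which had been above 0 before it. The other 23 members were below 0, as were 7454 of the 14995 genes. None of the 28 was above 2-fold, against 7.51% of all genes.

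**Figure D4:**
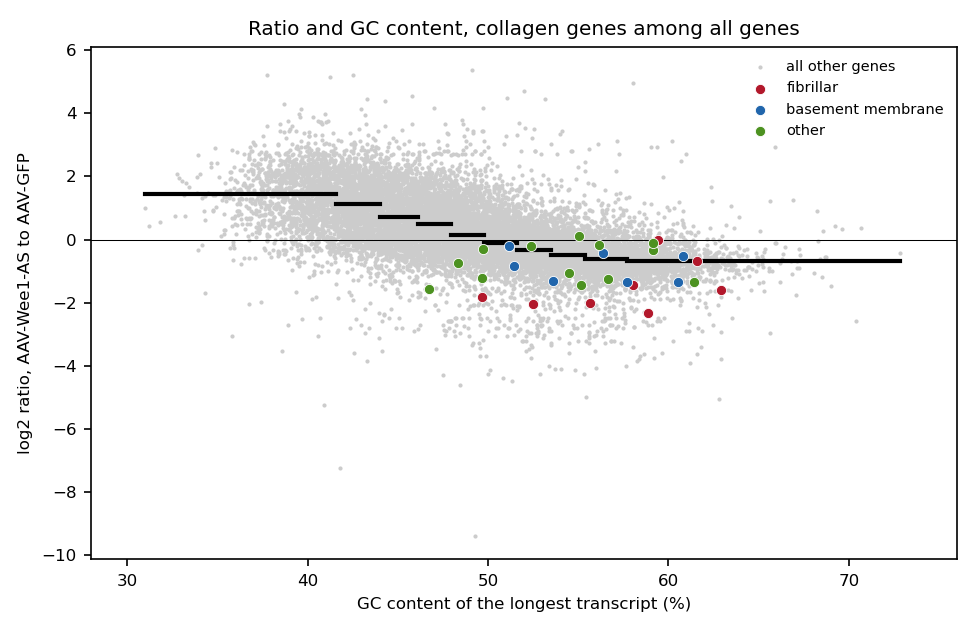
The log2 ratio (y axis) against the GC content of the longest transcript (x axis, %) for all genes past the count filter (gray), with the 28 collagen genes colored by class and black bars for the median of all genes in each of 10 groups of equal size. The medians descend from 1.43 in the lowest group to -0.69 in the highest, and most collagen genes lie under the bar of their group.

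Collagen chains are modified and folded in the endoplasmic reticulum, trimmed outside the cell and then crosslinked, and genes of these steps were examined as lists. Beside the counts in these lists and in the marker lists stand the shares of all genes, 8.71% below 0.5 and 22.2% above 2. With the trends removed, these shares are 8.44% below 0.5-fold and 7.51% above 2-fold. Of 16 genes of prolyl and lysyl modification and folding, 15 passed the filter, 2 had a ratio below 0.5 (*Serpinh1* and *P3h4*) and none above 2, with a median log2 ratio of -0.46. *Serpinh1*, which encodes the collagen chaperone HSP47, had the lowest ratio among them, with 2253 counts with AAV-GFP, 723 with AAV-*Wee1-AS* and a log2 ratio of -1.37 (-1.50 to -1.26). *P4hb*, the β subunit of prolyl 4-hydroxylase that also serves as a general disulfide isomerase, had 157981 and 100095 counts and a log2 ratio of -0.39 (-0.41 to -0.38). *Ppib*, a prolyl isomerase, was at -0.46 (-0.50 to -0.43). The highest ratio was that of *Colgalt2*, a collagen galactosyltransferase, at 0.64 (-0.27 to 1.70) from 17 and 23 counts. With the trends removed, *Serpinh1* was at -0.68, *P4hb* at 0.12, with its sign turned, and the median of the list at -0.09. *P3h4* (-0.46) was then within 2-fold, and *Plod2*, from 31 and 22 counts, was below 0.5-fold at -1.22.

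Of 8 genes of propeptide removal, 6 passed, 3 had a ratio below 0.5 (*Adamts2*, *Adamts14* and *Pcolce*) and none above 2. *Pcolce*, an enhancer of the C-proteinase, had 1131 and 427 counts and a log2 ratio of -1.14 (-1.31 to -0.98). *Bmp1*, the C-proteinase itself, had 6814 and 5191 counts and a log2 ratio of -0.13 (-0.18 to -0.08). *Pcolce2*, a second enhancer, was highest at -0.01 (-0.38 to 0.37), from 135 and 112 counts. *Adamts14*, an N-proteinase, was lowest at -1.65 (-2.36 to -1.10), from 110 and 28 counts. All 5 lysyl oxidases passed and 2 had a ratio below 0.5, *Loxl1* with 267 and 69 counts and *Loxl2* with 531 and 217. *Loxl4*, with 72 and 60 counts, was at 0.00 (-0.52 to 0.52). *Pcolce* (-0.56) and *Loxl1* (-0.96) were no longer below 0.5-fold with the trends removed, *Lox*, from 19 and 8 counts, was (-1.88), and the sign of *Bmp1* turned (0.18).

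Among 8 proteoglycans and glycoproteins that bind fibrils, 2 had a ratio below 0.5 (*Sparc* and *Fmod*) and 1 above 2. *Sparc*, a collagen-binding matricellular protein, had 8970 and 3029 counts and a log2 ratio of -1.30 (-1.36 to -1.24). *Bgn* (biglycan) was at -0.80 (-0.85 to -0.75). *Fn1* (fibronectin), which hepatocytes also secrete into plasma, was at 0.21 (0.20 to 0.22). *Postn* (periostin) had more counts with AAV-*Wee1-AS*, 194 and 403, a log2 ratio of 1.31 (1.07 to 1.57), in a transcript with a GC content of 36.3%. With the trends removed, *Postn* was at -0.27, 7 of the 8 genes were below 0 and none was above 2-fold. *Sparc* (-0.88) and *Fmod* (-0.56) were then no longer below 0.5-fold, while *Dcn* (decorin) went from 0.33 to -1.15 and *Lum* (lumican) from -0.27 to -1.29.

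The 15 laminins, nidogens and heparan sulfate proteoglycans of basement membranes all passed the filter, and 2 had a ratio below 0.5, against 8.71% of all genes. These were *Nid1*, which links laminin to type IV collagen, at -1.21 (-1.32 to -1.10), and *Hspg2* (perlecan) at -1.05 (-1.14 to -0.97). *Agrn* was at -0.62 (-0.71 to -0.52). *Lama3* was the exception with a ratio above 2, from 46 counts to 199. The median of the list was -0.51, nearer to no difference than *Col4a1* and *Col4a2*. *Lama2* was below 0.5-fold as well, at -1.30, with the trends removed.

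Collagen receptors had ratios on both sides. Of 9 genes, 8 passed, 2 had a ratio below 0.5 (*Ddr1* and *Mrc2*) and 2 above 2 (*Ddr2* and *Itgb1*), against 22.2% of all genes, with a median log2 ratio of 0.67. *Itgb1*, the β1 integrin subunit that pairs with all collagen-binding α subunits, had 2655 counts with AAV-GFP and 6982 with AAV-*Wee1-AS*, a log2 ratio of 1.66 (1.59 to 1.72). *Itga1* was at 0.95 (0.79 to 1.12). *Mrc2*, an endocytic receptor that clears collagen fragments, had 234 and 66 counts and a log2 ratio of -1.54 (-1.98 to -1.16). After removal of the GC and length trends, the median of the receptors was -0.25, so its sign depends on that choice. *Ddr2* (0.33), *Itgb1* (0.88) and *Ddr1* (-0.41) were then within 2-fold, and *Itga10*, at 1.15 from 19 and 33 counts, was above it, while *Itga1* turned to -0.75.

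Markers of cell types that produce collagen are given beside these results. Of 6 myofibroblast markers, 5 passed and 3 had a ratio below 0.5 (*Acta2*, *Tagln* and *Timp1*), and their summed level was 51.9 TPM with AAV-GFP and 19.5 TPM with AAV-*Wee1-AS*. *Tagln*, a smooth muscle actin-binding protein, had 780 and 106 counts and a log2 ratio of -2.60 (-2.92 to -2.32), and *Cnn1* was at 0 in both libraries. *Tpm2* (-0.87) and *Myl9* (-0.84), which encode contractile proteins, were nearer to no difference. With the trends removed, *Acta2* (-1.63), *Tagln* (-2.13) and *Timp1* (-1.88) remained below 0.5-fold, while *Tpm2* was at -0.24 and *Myl9* at -0.10. Of 6 portal fibroblast markers, 5 had a ratio below 0.5 (*Thy1*, *Eln*, *Fbln2*, *Entpd2* and *Cd34*), with a summed level of 94.4 and 57.2 TPM. *Gas6*, the most abundant of them, was at -0.60 (-0.66 to -0.54). With the trends removed, 2 of the 6 remained below 0.5-fold, *Fbln2* and *Cd34*, the median went from -1.26 to -0.62, and *Gas6* turned to 0.09. Of 5 mesothelial markers 3 had a ratio below 0.5 (*Msln*, *Upk3b* and *Wt1*), and they were scarce, with a summed level of 3.57 and 1.09 TPM, *Krt14* at 0 in both libraries, *Wt1* at 35 and 0 counts and *Upk1b* at 18 and 8. *Msln* was at -0.66 with the trends removed and no longer below 0.5-fold.

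Stellate cell markers did not move as one. Of 8, 2 had a ratio below 0.5, *Cygb* and *Pdgfrb*, and 3 had one above 2, *Lrat*, *Rgs5* and *Hgf*. The summed level was 220.8 TPM with AAV-GFP and 167.2 TPM with AAV-*Wee1-AS*, of which *Ecm1* alone held 177.5 and 123.4 TPM. *Reln*, a secreted glycoprotein of stellate cells, had 3951 and 3913 counts, a log2 ratio of 0.25 (0.19 to 0.31), and *Ecm1*, the most abundant marker, was at -0.50 (-0.54 to -0.45). With the trends removed none of the 8 was past 2-fold in either direction, their median turned from -0.12 to 0.07, and the signs of *Reln* (-0.34) and *Ecm1* (0.30) turned as well. Of 6 sinusoidal endothelial markers none was past 2-fold in either direction, with 152.6 and 119.8 TPM in sum, and the same held for 5 cholangiocyte markers, with 44.1 and 37.9 TPM. The endothelial markers ran from *Oit3* (-0.69) to *Kdr* (0.55), with the abundant *Stab2* at -0.27 and *Clec4g* at -0.50. Among cholangiocyte markers, *Krt19* was lowest at -0.67, *Sox9* highest at 0.79, and the abundant *Spp1* at -0.21, which with the trends removed was at -1.01, past 2-fold, and *Krt19* at 0.09. Of 5 Kupffer cell markers 3 had a ratio above 2 (*Marco*, *Timd4* and *Vsig4*), while the most abundant, *Cd5l* at -0.76 (-0.80 to -0.72) and *Clec4f* at -0.15 (-0.20 to -0.10), were lower, and the summed level was 318.2 and 254.8 TPM. With the trends removed, 1 of the 5 was above 2-fold, *Marco*, the median went from 1.40 to 0.75, and *Clec4f* turned to 0.22. Among hepatocyte markers, *Cps1* was highest at 1.21 and *Ttr* lowest at -0.62, with *Cyp2e1* at 0.21 and, with the trends removed, at -0.05. Whether the makeup of the cells in the samples has a part in the collagen ratios was not tested.

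**Figure D5:**
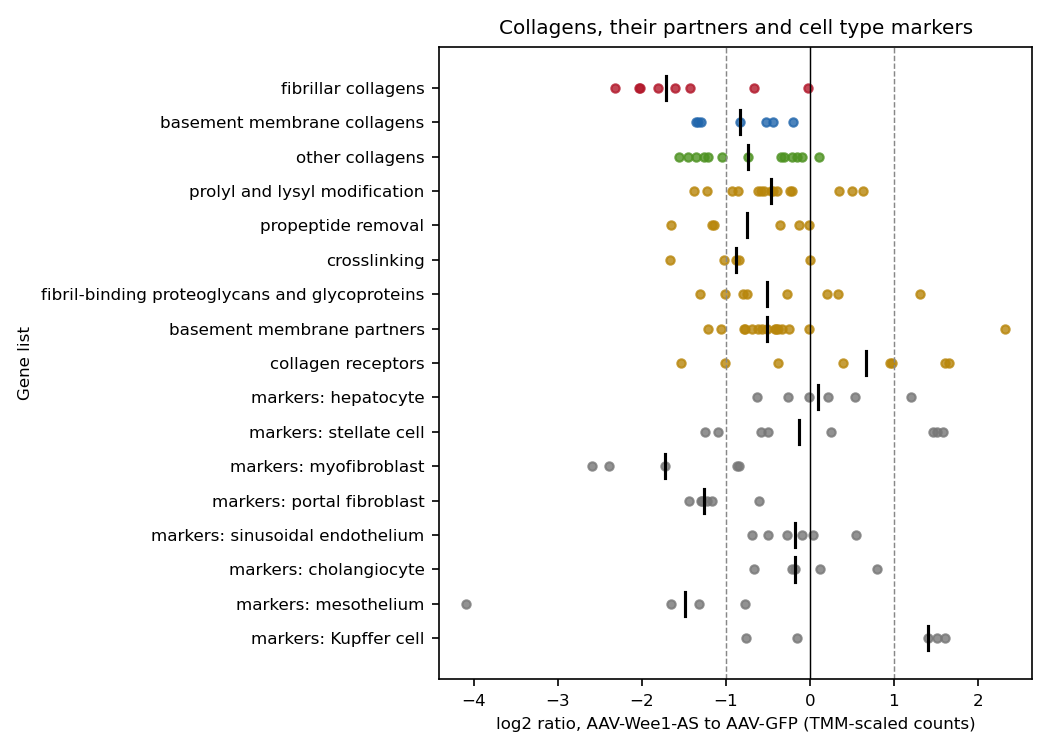
The log2 ratio, AAV-*Wee1-AS* over AAV-GFP (x axis), for each gene past the count filter in the collagen classes, the lists of collagen partners and the cell type markers (rows), with a black tick at the median of each list and dashed lines at 2-fold. Myofibroblast (-1.73), portal fibroblast (-1.26) and mesothelial (-1.48) medians lie on the side of the fibrillar collagens (-1.71). The collagen receptors (0.67) and Kupffer cell markers (1.40, with a pooled ratio of -0.33) lie on the other. Stellate cell (-0.12), sinusoidal endothelial (-0.18), cholangiocyte (-0.18) and hepatocyte (0.10) marker medians lie nearer to no difference. All values are with GC content and length trends in place.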

How the data were processed

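Poly-A RNA of 2 groups of mouse livers, AAV-GFP and AAV-*Wee1-AS*, was measured in 1 library each (stranded Illumina TruSeq mRNA kit, RNA of high integrity). The authors deposited an estimated count, a FPKM value (scaled by transcript length and library) and a TPM value for each RefSeq transcript of mm10. The submitters' processing notes name Trimmomatic 0.38, HISAT2 2.1.0, SAMtools 1.9 and StringTie 2.1.3b, without their roles, and whether counting used strand is not given in the sources used here. The deposited counts are whole numbers. In transcripts above 1000 counts they equal FPKM times length over a constant (to within 0.0974%), and they were read as estimates assigned among overlapping transcripts. No per-sample column was left out.

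Counts were summed per gene symbol and rounded. Libraries were scaled by TMM (edgeR 4.0.16, R 4.3.3), and log2 ratios used a prior count of 2. The filter kept genes that reached 10 counts in 1 of the libraries, and a ratio above 2 or below 0.5 was counted. With 1 library per group, no test of counts was possible, so exact counting intervals at 95% were computed. A count of 0 was read as up to 3 counts. GC content came from the longest GENCODE transcript of a gene and was found for 94.6% of genes past the filter and for 28 of 28 members. Its trend and that of transcript length were removed by lowess fits (span 0.3, 5 cycles). Promoters came from RefSeq (GRCm38.p6). Every member of the family was named, and from each other list the 2 genes with the most counts and those with the lowest and highest ratio. Other list genes behind counts of 5 or fewer were named after their values were seen. Members and lists were chosen with earlier results of these data known. Python 3.11.15 with numpy 2.4.6, pandas 2.3.3, scipy 1.17.1 and statsmodels 0.14.6 was used, and the steps were tested on simulated data. The alternatives were scaling by totals, by DESeq2 (1.42.0) size factors or by the upper quartile, other count filters, a prior count of 0.5, FPKM, TPM, removal of the trends, the most abundant transcript only and other class borders.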

Additional observations from a re-analysis of the deposited data

How the results depend on the processing

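No paired analysis was possible because each group had 1 library, and for the same reason no library could be left out. Scaling by library totals, DESeq2 size factors or the upper quartile gave 15 or 16 of 28 members with a ratio below 0.5. So did a prior count of 0.5 and removal of the GC content and length trends. The share of all genes below 0.5 ran from 8.42% (DESeq2 size factors) to 14.1% (upper quartile) under these settings. The upper quartile also moved the median of all genes to -0.22. With no filter, 17 of 35 members were below 0.5 and 2 above 2, against 10.5% and 23.5% of all genes. Both of those above 2 were under 10 counts in each library (*Col7a1* and *Col25a1*). With at least 10 counts in both libraries, 11 of 24 members were below 0.5, against 6.13% of all genes. With at least 100 counts in 1 library it was 11 of 19, against 5.81%. FPKM with a pseudocount of 1 gave 7 members below 0.5, against 1.94% of all genes. Medians were -0.33 (all members), -0.88 (fibrillar), -0.32 (basement membrane) and -0.11 (other), since the pseudocount exceeds the FPKM of many members. TPM with a pseudocount of 0.1 gave 11, against 8.04% of all genes. With the most abundant transcript only, 17 members were below 0.5 and 1 was above 2, against 13.1% and 23.5% of all genes. The member above 2 was *Col6a3* at 2.53, and *Col4a5* was at 0.43. *Col27a1* was then at -1.26, *Col5a3* at -1.16, *Col13a1* at -5.27 and *Col16a1* at -6.60. The cause of these shifts was not tested.

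The pooled log2 ratio of the fibrillar class was -1.76 with library totals and -1.91 with the upper quartile, that of the basement membrane class -0.65 and -0.80 (-1.26 without *Col18a1* and -1.33 with type IV chains only), and that of the other collagens -0.68 and -0.83. Without *Col1a1*, *Col1a2* and *Col3a1*, the fibrillar share of the family TPM was 3.40% with AAV-GFP and 3.11% with AAV-*Wee1-AS*, the basement membrane share 85.6% and 86.6%, and the share of the others 11.01% and 10.32%. Without *Col18a1*, these shares were 49.9% and 36.0%, 22.8% and 23.4%, and 27.3% and 40.7%. With types XV and XVIII moved to the others, the basement membrane share was 7.25% and 4.81% and that of the others 75.5% and 86.6%. The settings without *Col18a1* and the pooled type IV value were chosen after seeing the data.

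The sign turned for *Col23a1* with the upper quartile (-0.083), for *Col27a1* with FPKM (0.0038), TPM (0.029) and the trends removed (0.11), and, with the trends removed, for *Col8a2* (0.45), *Col13a1* (0.36), *Col20a1* (0.17) and the medians of the collagen receptors (-0.25), stellate cell markers (0.067) and cholangiocyte markers (0.087). It also turned for single genes of the lists, among them *P4hb* (0.12), *Bmp1* (0.18), *Itga1* (-0.75), *Reln* (-0.34), *Ecm1* (0.30) and *Gas6* (0.09). Of 295 values of single members under the alternatives, 231 stayed within their counting interval, 55 moved past it with the same sign and 9 changed sign. Depth limits the 9 members with under 100 counts in both libraries, of which 2 had an interval wholly below no difference.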

Other observations

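Within several collagen genes the estimated counts were assigned to different transcript models in the libraries, while the gene's sum differed far less. For *Col6a3*, transcript variant 1 held 86 counts with AAV-GFP and 423 with AAV-*Wee1-AS*, and variant 2 held 500 and 0. For *Col16a1*, the predicted variant X3 held 209 and 0 counts and X2 held 0 and 185. For *Col5a3*, the predicted noncoding model X1 held all 1562 counts with AAV-GFP and 580 with AAV-*Wee1-AS*, and the coding variant 1 held 0 and 224. In *Col13a1*, variant 2 held 82 and 0 counts, and X16 held 0 and 40. In *Col5a1* and *Col6a2*, by contrast, the transcripts kept their shares. The predicted model X1 of *Col5a1* held 72.0% and 71.6% of the gene, and variant 1 of *Col6a2* held 71.4% and 69.7%. These are shares assigned among models that overlap, and a spread of the assignment between libraries of one group could not be measured.

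The rank order of the collagens by level was much alike in the libraries. Across the 28 members past the filter, the Spearman coefficient of TPM with AAV-GFP and with AAV-*Wee1-AS* was 0.98, over genes that share the same pair of libraries. The coefficient of the log2 ratio with the TPM of the AAV-GFP library was -0.32 over the 28 members and -0.23 over the 19 with at least 100 counts. The AAV-GFP value enters both measures, so a negative coefficient arises in part from the construction.

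Some members overlap other genes of the table. *Gm32317*, inside *Col15a1*, had 74 counts with AAV-GFP and 122 with AAV-*Wee1-AS*, and a predicted locus inside *Col27a1* had 46 and 57. *Col4a3* and *Col4a4* share 114 bases at their starts, with 4 and 7 counts for *Col4a3*.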
